A study of Mus musculus with 6 samples.

Results

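AP-1 is a family of transcription factors that work as pairs: proteins of the JUN family (Jun, Junb, Jund) pair with each other or with proteins of the FOS family (Fos, Fosb, Fosl1, Fosl2) through a basic leucine zipper, or bZIP, and bind a short DNA element that was first described as the response element of the phorbol ester TPA. FOS proteins cannot form stable pairs among themselves, so they need a JUN partner. Many of these genes are immediate early genes, which growth factors, cytokines or microbial products switch on within minutes through MAP kinases and without new protein synthesis, and whose messenger RNAs are short-lived. In macrophages AP-1 acts together with NF-kappaB at inflammatory genes.

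The 10 genes described here are the 4 FOS and 3 JUN family genes, the bZIP gene Atf3, the zinc finger gene Egr1 and the stress-response gene Ier3. They were found by gene symbol in the authors' deposited comparison, which lists 19386 genes, and all 10 were among the 12082 genes that carry an adjusted p-value there. The RNA came from bone marrow-derived macrophages, cells grown from mouse marrow in the presence of supernatant of the fibroblast line L929, a source of macrophage growth factor. All mice were wild-type C57BL/6. One group of 3 libraries came from mice exposed to cigarette smoke and the other group of 3 from mice kept in room air, and the cultures were harvested on day 11. The labels give neither the length of the exposure nor the age or sex of the mice. The protocol speaks of marrow taken from each mouse but does not tie a library to a mouse, so the errors below are over libraries. Whether the authors' expression errors were fitted on these 6 libraries alone or on all 24 behind their comparison is not stated.

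Expression was given as 1 mean of size-factor-normalized counts per group, with the authors' log2 fold change, its standard error (SE) and a Benjamini-Hochberg adjusted p-value over all genes tested. Values of single libraries were not used for expression, so it cannot be said how the 3 libraries of a group lie around their mean, and no library could be left out. The depth of each library is unknown. As a partial view of it, 1 to 398 of the 10376 splicing events described below had no value in the room air libraries, against 50, 189 and 4169 in the smoke libraries. As a check of the cell type, the 10 macrophage markers (Lyz2, Csf1r, Cd68 and others) summed to 56370 normalized counts in room air and 56908 after smoke in the authors' deposited table, and none of the 10 passed an adjusted p of 0.05. Lyz2 alone held 23168 and 24772 of these sums, which can hide markers that move apart. Fold changes were positive for 5 markers and negative for 5. Mrc1 went from 3601 to 2196 (log2 fold change -0.71, SE 0.27, DESeq2 adjusted p 0.0836) and Fcgr1 from 536.6 to 761.6 (0.51, SE 0.26, DESeq2 adjusted p 0.218). None of the 3 T cell and 6 erythroid markers was listed. The 3 B cell markers listed summed to 6.31 and 4.14, and the 2 dendritic cell markers to 0.522 and 1.02. The 6 stromal markers summed to 47.9 in room air and 10.8 after smoke, with no gene past the threshold. Of the neutrophil markers 2 of 7 were listed, and their sum of 301.3 and 316.8 was nearly all Csf3r, which monocytes also carry. Kit, the 1 mast cell marker of 3 that was listed, had means of 54.5 and 47.9. The part of any of these in the results was not tested.

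Of the 10 genes, 3 rose after smoke and none fell at an adjusted p under 0.05 in the authors' deposited table, against a background of 4.15% of all genes tested that rose and 3.53% that fell (7.69% in all). Ier3 rose 5.43-fold, and Jund and Junb each rose 1.56-fold. None of the 3 calls held once a trend in GC content and length of the transcripts, described below, had been taken out: Jund was then at 1.09-fold, Junb at 1.17-fold and Ier3 at 4.40-fold. The other 7 genes did not pass the threshold. Their fold changes ran from 0.622 for Fosb to 3.38 for Fosl1, and 4 of them (Fosl2, Jun, Egr1 and Atf3) lay within 1 SE of no change. The median log2 fold change of the 10 genes was 0.14, beside -0.00 over all genes tested, and 0.03 beside -0.01 with the trend taken out. In a bulk sample, more cells expressing a gene and more RNA per cell cannot be told apart.

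Promoter windows of 300 bases, from 250 before to 50 after the RefSeq start of transcription (build GRCm38.p6), were found for 8 of the 10 genes. The windows of 2 genes that rose, Ier3 (chr17:35821463-35821762, plus strand) and Junb (chr8:84978699-84978998, minus strand), and of 2 that did not pass the threshold, Fos (chr12:85473640-85473939, plus strand) and Jun (chr4:95052173-95052472, minus strand), are shown 5′ to 3′ on the gene's strand. The other windows are counted and not shown. RefSeq and GENCODE starts are within 100 bases of each other for the 4 printed genes and Fosb, but 1210 bases apart for Jund, 671 for Fosl2 and 34706 for Atf3, so those 3 windows may not be the promoter used. Capitals mark every match to the motifs listed below.
Ier3: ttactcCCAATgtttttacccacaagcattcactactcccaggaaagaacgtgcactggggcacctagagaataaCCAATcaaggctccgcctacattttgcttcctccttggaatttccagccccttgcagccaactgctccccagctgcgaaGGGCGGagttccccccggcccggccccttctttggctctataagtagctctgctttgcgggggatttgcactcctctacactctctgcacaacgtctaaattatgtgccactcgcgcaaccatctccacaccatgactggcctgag
Junb: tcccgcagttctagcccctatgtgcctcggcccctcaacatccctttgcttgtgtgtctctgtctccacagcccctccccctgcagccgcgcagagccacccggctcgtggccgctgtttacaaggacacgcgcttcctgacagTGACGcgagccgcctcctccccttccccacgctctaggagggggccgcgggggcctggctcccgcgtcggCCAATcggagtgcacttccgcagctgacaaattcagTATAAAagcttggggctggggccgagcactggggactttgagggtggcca
Fos: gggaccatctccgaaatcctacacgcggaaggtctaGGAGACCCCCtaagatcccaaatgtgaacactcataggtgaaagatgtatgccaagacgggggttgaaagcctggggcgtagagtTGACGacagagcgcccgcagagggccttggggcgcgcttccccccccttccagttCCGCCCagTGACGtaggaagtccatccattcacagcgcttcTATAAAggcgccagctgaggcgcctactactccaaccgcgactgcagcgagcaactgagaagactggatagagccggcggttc
Jun: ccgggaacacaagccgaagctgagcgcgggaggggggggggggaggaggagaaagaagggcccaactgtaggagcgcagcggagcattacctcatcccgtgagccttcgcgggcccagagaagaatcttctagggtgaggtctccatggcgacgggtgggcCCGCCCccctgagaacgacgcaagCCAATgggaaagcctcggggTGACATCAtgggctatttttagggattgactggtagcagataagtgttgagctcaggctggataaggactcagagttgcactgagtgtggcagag

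The motifs were searched on both strands of each window, and the share of all 32851 windows holding them is given for comparison. That share was not matched for GC content. Its median was 52.7% over all windows, against 46.7% in the window of Jund and 54.0% (Ier3) to 68.3% (Fosb) in the others described here. The TPA response element TGANTCA was in none of the 8 windows (7.81% of all windows), and neither was the CArG box bound by serum response factor (1.63%). Sites more than 250 bases before the start were not searched, and Fosl1 and Egr1 had no window, so these genes may hold such sites elsewhere. The CRE-like octamer TGACNTCA was in the window of Jun alone (8.83% of all windows), as TGACATCA from 45 to 38 bases before the start. The CRE half-site TGACG, which overlaps the octamer wherever the variable base is G, was in 4 windows, those of Fos, Fosb, Junb and Atf3 (20.8%). Fos held it at 129 and at 66 bases before the start, and Junb at 106. The kappaB consensus was in 3 windows, Fos, Fosb and Fosl2 (5.81%), and the EGR site GCGNGGGCG in those of Fosb and Fosl2 (5.55%), where it overlaps a GC box. The GC box GGGCGG was in 6 windows (35.7%), the CCAAT box in 4 (37.4%) and the TATA box TATAAA in those of Fos and Junb (13.6%). In Junb it was at the RefSeq start itself, and the GENCODE start lies 30 bases downstream of that. Among the 5 windows with close starts, the half-site was in 3, the kappaB consensus in 2, the EGR site in 1, the GC box in 4 and the CCAAT box in 3. Ier3 held 2 CCAAT boxes and 1 GC box, and the window of Jund held no match. These are matches of letters in a short window, and the motif that Ier3 and Junb both held, the CCAAT box, was also in Jun.

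Jund encodes the JUN family member that resting cells express most steadily. Its mean in the authors' deposited table was 396.4 normalized counts in room air and 618.7 after smoke. The authors' deposited table gave a log2 fold change of 0.64 (SE 0.13, DESeq2 adjusted p = 0.000332), for a 95% interval from 0.38 to 0.90. With the trend in GC content and length taken out it was 0.12 (adjusted p = 0.838). By the size of its deposited p-value Jund had rank 47 among all genes with one. Jund has a single exon, on the plus strand of chromosome 8 (70698949 to 70700616, GRCm38, annotation GENCODE M21).

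Junb encodes a JUN protein with weaker activating power than JUN itself, which many inflammatory signals induce. Its mean, per the authors' deposited table, rose from 218.4 to 338.7 normalized counts. The authors' deposited table again gave a log2 fold change of 0.64, with a larger error (SE 0.21, DESeq2 adjusted p = 0.0323, 95% interval 0.24 to 1.05). Junb lies on the minus strand of the same chromosome (84974484 to 84978718) and its GENCODE coding transcript also has 1 exon, beside up to 2 in the authors' merged annotation. When the deposited p-values were adjusted over all genes with a p-value, without the authors' filter on low counts, the adjusted p of Junb was 0.0511. With the trend in GC content and length taken out, its log2 fold change was 0.23 (adjusted p = 0.78).

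Jun, the founding member of the family, did not pass the threshold (adjusted p = 0.87 in the authors' deposited table). Its means in the authors' deposited table were 611.2 and 652.8 normalized counts, for a log2 fold change of 0.10 (SE 0.24) and a 95% interval from -0.38 to 0.57. That interval holds the change seen for neither Jund nor Junb, but the SE of Jun is the largest of the 3, and the difference between genes was not tested. Jun (chromosome 4, 95049034 to 95052222, minus strand) likewise has 1 exon in the GENCODE coding transcript, while the authors' merged annotation gives it a transcript of 2 exons.

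Of the FOS family, the most abundant member by counts in the authors' deposited table was Fosl2, which encodes FRA2, with means of 160.2 and 181.5 normalized counts and a log2 fold change of 0.18 (SE 0.44). Fos, whose messenger RNA is the standard example of an immediate early transcript, had means of 121.8 in room air and 82.8 after smoke in the authors' deposited table (log2 fold change -0.57, SE 0.45, adjusted p 0.481). The close relative Fosb was near the lower end of the genes tested, with means of 7.97 and 5.73 in the authors' deposited table (log2 fold change -0.69, SE 0.59). Both point estimates were below 0, and both 95% intervals, -1.46 to 0.31 for Fos and -1.84 to 0.47 for Fosb, held 0.

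Fosl1, which encodes FRA1, stood apart in the other direction but at very low level. Its means in the authors' deposited table were 1.37 normalized counts in room air and 4.53 after smoke. The authors' deposited table gave 1.76 as the log2 fold change (SE 0.70), and an unadjusted DESeq2 p of 0.0118 that became 0.096 on adjustment, so Fosl1 is called at a threshold of 0.1 and not at 0.05. With 10 normalized counts added to each mean, the log2 ratio of the means was 0.35.

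Ier3 encodes a small protein that is induced by NF-kappaB, stress and growth factors and that modulates cell survival. Its means were 23.1 normalized counts in room air and 123.7 after smoke in the authors' deposited table. At 2.44 its log2 fold change, from the authors' deposited table (SE 0.63, DESeq2 adjusted p = 0.00508, 95% interval 1.21 to 3.67) was higher than that of 99.6% of the genes tested. Ier3 lies on chromosome 17 (35821684 to 35822923, plus strand) and has 2 exons.

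Atf3 and Egr1, a stress-induced bZIP factor and a growth-factor-induced zinc finger factor, did not pass the threshold (adjusted p of 0.891 and 0.964 in the authors' deposited table). Atf3 had the highest mean of the 10 genes, 814.7 normalized counts in room air and 858.2 after smoke in the authors' deposited table (log2 fold change 0.08, SE 0.23, 95% interval -0.37 to 0.53). Egr1 was rare, with means of 12.9 and 11.9 in the authors' deposited table (log2 fold change -0.07, SE 0.54). A 2-fold change of Egr1 in either direction lies within or at the edge of its 95% interval, -1.12 to 0.99, while the interval of Atf3 leaves out a 2-fold change.

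**Figure D1:**
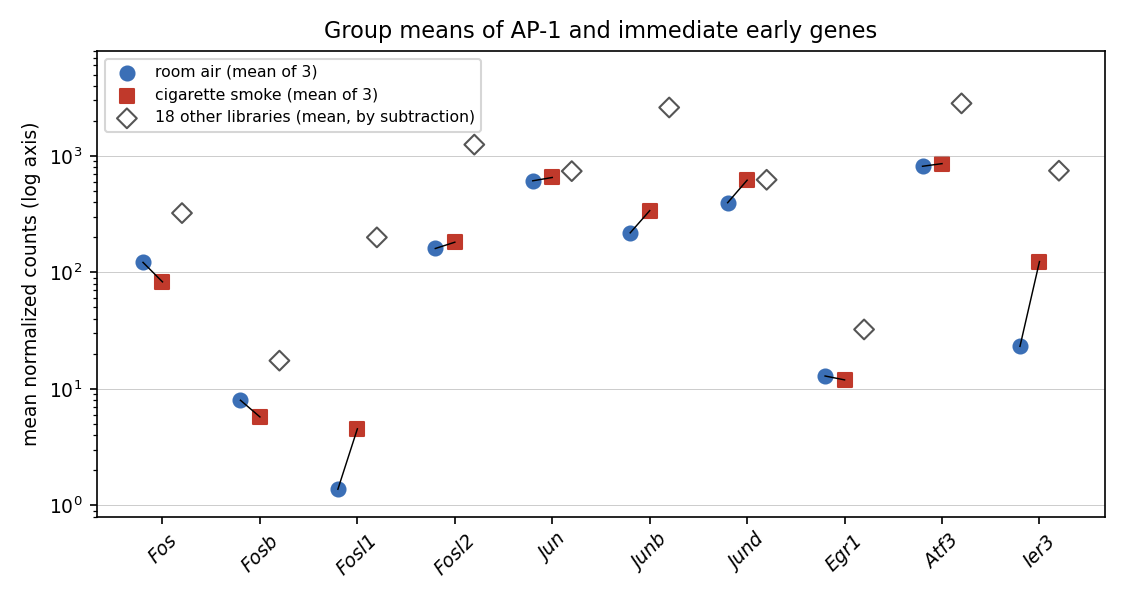
Mean normalized counts (log axis) of the 10 genes in the 3 room air libraries (blue circles), the 3 cigarette smoke libraries (red squares) and the mean of 18 further libraries obtained by subtraction (open diamonds). The group means of Ier3, Jund and Junb are higher after smoke, those of Jun and Atf3 nearly coincide, and the diamonds lie above both group means for every gene.

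**Figure D2:**
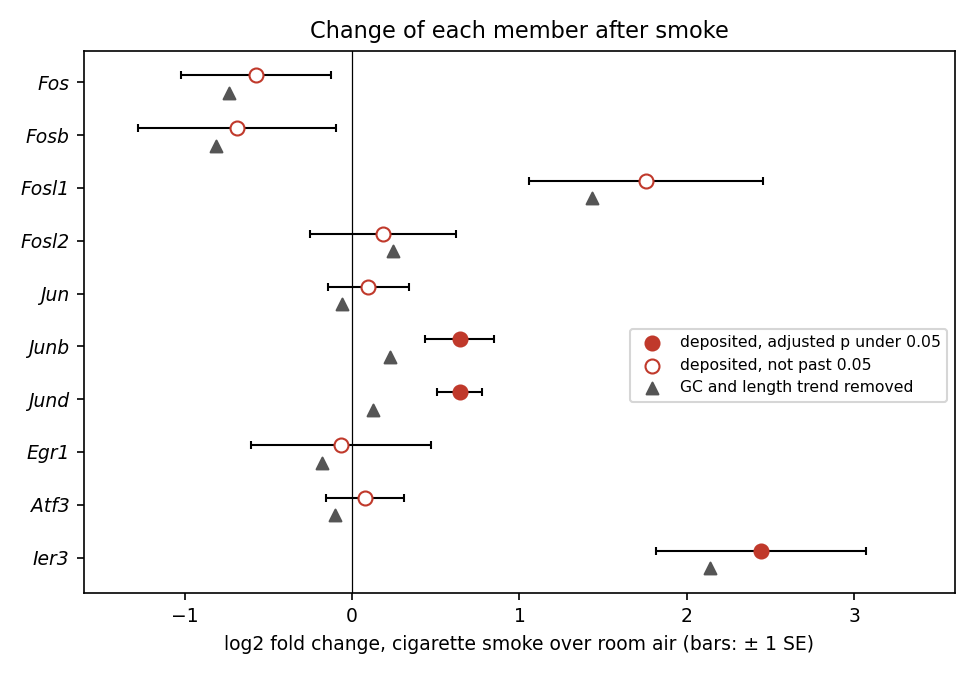
Log2 fold change of cigarette smoke over room air for each gene in the authors' deposited table (circles, bars ± 1 SE; filled where the adjusted p is under 0.05) and after a trend in transcript GC content and length was removed (triangles). Jund moves from 0.64 to 0.12 and Junb from 0.64 to 0.23, while Ier3 moves from 2.44 to 2.14.

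Compared per length of the longest coding transcript, the order of the levels in room air was Atf3, Jund, Jun, Junb, Fos, Fosl2, Ier3, Egr1, Fosb and Fosl1, from 410.7 down to 0.736 normalized counts per kilobase. After smoke Ier3, at 109.4 per kilobase, stood above Fos at 39.3 and Fosl2 at 27.8, where in room air it had stood below both, at 20.5 against 57.8 and 24.5. Fosl1 likewise stood above Fosb after smoke, at 2.43 against 1.52 per kilobase. The remaining order was the same in both groups. Which neighbours in this order differ beyond the spread of the libraries cannot be said from group means. Summed per kilobase, the JUN family came to 550.1 in room air and 762.8 after smoke and the FOS family to 85.1 and 71.0, so that JUN transcripts outnumbered FOS transcripts 6.46-fold and 10.7-fold. Jund alone made up 43.2% of the JUN family level in room air and 48.6% after smoke.

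The authors' deposited table also gives each gene's mean over 24 libraries, of which the 6 described here are part. The mean of the other 18, which have no labels here, follows by subtraction. All 10 genes had a higher mean in those 18 libraries than in the 6, as did 55.3% of all genes tested. Of the 10, 8 were at least 2-fold higher, against 19.0% of all genes tested. Genes with a p-value but no adjusted p all had a 24-library mean of at most 8.52, and the 18 are part of that mean. Fosl1 and Fosb, at 2.95 and 6.85 in the 6 libraries, exceeded that value only through the 18. The shares, and the ratios of these 2 genes, are therefore partly set by the filter. The ratio was 67.7 for Fosl1, 10.2 for Ier3, 9.35 for Junb, 7.32 for Fosl2, 3.38 for Atf3, 3.15 for Fos, 2.61 for Egr1 and 2.55 for Fosb. It was 1.23 for Jund and 1.17 for Jun, near the 1.09 that was the median of all genes tested. After smoke Jund, at 618.7 normalized counts, was close to the mean of the other 18 libraries, 623.8, whereas Ier3 at 123.7 remained below their 746.3.

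Genes with the most similar pattern were sought among 8776 genes with group means of at least 50, by the distance between pairs of log2 ratios (smoke over room air, and the other 18 libraries over these 6). For Ier3 the nearest were Plaur, the urokinase receptor gene, and Ccl2, the chemokine gene, at distances of 0.56 and 0.83. Ier3 itself, with a room air mean of 23.1, lies below that floor, so genes as low as it in room air were not searched. For Junb the nearest were the kinase gene Pim1 at 0.10 and the unnamed locus RP23-121I20.3 at 0.19, and neither passed the threshold (adjusted p of 0.0776 and 0.422 in the authors' deposited table). For Jund they were the ribosomal protein pseudogene Rpl3-ps1 and the heat shock protein-binding gene Hspbp1, both at 0.01. In the authors' deposited table Hspbp1 passed the threshold (adjusted p of 0.00432) and Rpl3-ps1 did not (0.174). These distances rest on 3 mean values per gene.

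The genes that rose are short and rich in G and C. Over the 12071 genes with an adjusted p and a known transcript, deposited log2 fold changes had a Spearman rho of 0.483 with the GC content of the longest transcript and of -0.448 with its length; these genes share their libraries and are not independent. The transcript of Jund has a GC content of 67.1%, higher than that of 99.9% of the genes tested, and that of Junb has 62.6%, higher than that of 99.0%. Their lengths of 1668 and 1809 nucleotides compare with a median of 3250. Ier3 is shorter, with 1131 nucleotides, but its GC content of 54.4% is higher than that of 76.2%. When a smooth trend of the fold changes in both properties was taken out, the log2 fold change of Jund was 0.12 (adjusted p = 0.838) and that of Junb 0.23 (adjusted p = 0.78), both on normal p-values from the deposited SE. That of Ier3 was 2.14, with an adjusted p of 0.0509. None of the 10 genes was then past 0.05, where 1.27% of all genes were, and the point estimates of Jun and Atf3 turned to -0.06 and -0.10.

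**Figure D3:**
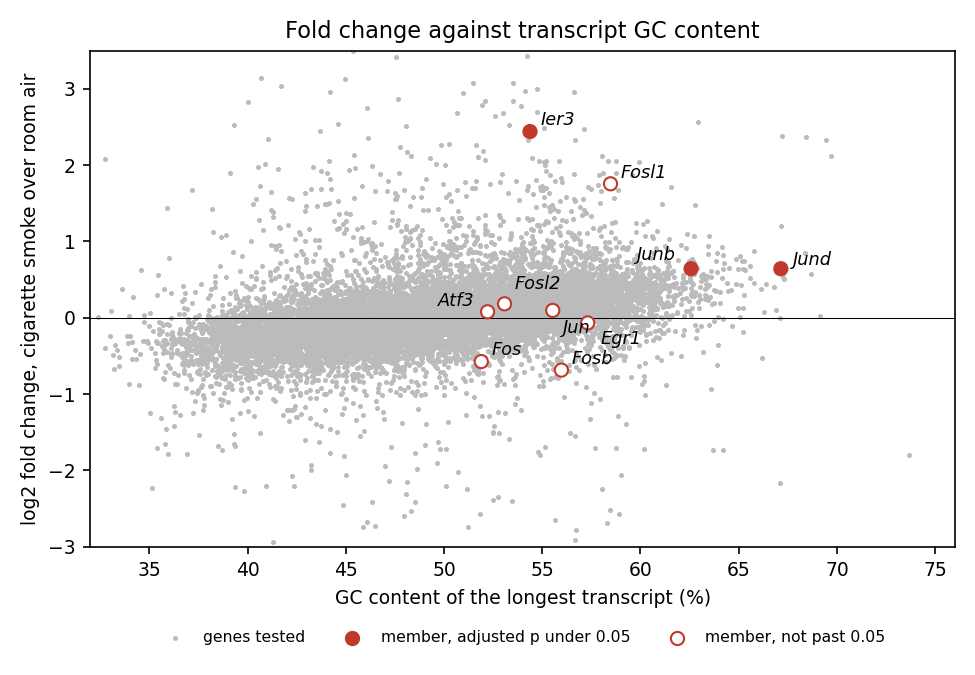
Log2 fold change of cigarette smoke over room air in the authors' deposited table against the GC content of the longest transcript (%), for 12071 genes (grey, 38 of them outside the axes) and the 10 AP-1 and immediate early genes (red; filled where the adjusted p is under 0.05). Jund and Junb sit at the GC-rich end, where most grey points lie above 0, and Ier3 lies above most grey points at 54.4%.

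Several of these genes overlap a neighbour on the opposite strand. Jund is overlapped over 919 bases by the antisense gene Gm11175, Jun over 689 bases by the antisense gene Junos, Junb over 351 bases at the end of its gene by Prdx2, and Fosl1 over 2767 bases by Ccdc85b. These are overlaps of whole gene spans, introns included, and how many of the bases lie in exons of both genes was not determined. For Fosl1 the overlap is longer than its transcript of 1864 nucleotides. The library kit keeps strand, but whether counting used it is not stated. In the authors' deposited table, Gm11175 had means of 1.41 and 2.32 normalized counts and Junos 3.25 and 2.90, well under those of Jund and Jun. Prdx2 had 408.2 and 486.0 (log2 fold change 0.26, SE 0.13) and Ccdc85b 9.59 and 16.7, more than Fosl1 itself. Prdx2 likewise stood above Junb. The values of Junb and Fosl1 are therefore uncertain if the shared bases lie in exons and reads of the pairs were not told apart by strand.

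In the 3′ untranslated regions, the pentamer ATTTA, the core of AU-rich elements that mark short-lived messages, occurred in the transcripts of all 10 genes. The median density was 2.20 per kilobase of untranslated region, beside 1.33 over 10883 genes tested with a complete coding transcript. Ier3 had the highest, with 5 pentamers in 613 nucleotides (8.16 per kilobase, above 98.5% of those genes), followed by Fos with 4 in 815 (4.91 per kilobase) and Junb with 2 in 485 (4.12 per kilobase). Jund had 1 in 533 and Fosb 1 in 2145. The longer element TTATTTATT was present in Fos and Fosl2, 2 of 10, and in 8.1% of the genes tested. Genes whose GENCODE coding transcript has a single exon were 2.26% of those 10883 genes, and 3 of the 10 described here, Jun, Junb and Jund.

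Splicing was measured in Atf3 only, since the other 9 genes had no event in either splicing table. JuncBASE, a program that classifies splicing events from junction reads, gave a percent inclusion level per library for 4 events, 2 descriptions each of an acceptor choice at the exon that follows the intron from 191177475 to 191183092 on chromosome 1 (minus strand). That junction is annotated, and the junctions from the same donor to acceptors 130 and 134 bases further downstream are not. The acceptor at 134 bases is itself annotated, as the end of a 106-base intron of the transcript Atf3-202. From junction reads alone, the annotated acceptor was used at 95.8%, 96.0% and 100% in the 3 room air libraries and at 95%, 91.7% and 95.6% in the 3 smoke libraries. The groups did not overlap in this 1 event of the 4, and neither did they in 23.1% of the 5933 events with a value in all 6 libraries, so the separation is no result about Atf3. The means were 97.3% ± 2.36 (SD, n = 3) and 94.1% ± 2.11 (SD, n = 3).

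In limma on log2 odds of inclusion, this difference was -1.23 (SE 0.78) with an adjusted p of 0.541 over all 10376 events. With each library left out in turn it ran from -1.64 to -0.43, the latter without room air replicate 3. With exon reads included, the same acceptor was at 93.8%, 96.0% and 98.2% in room air and at 94.4%, 90.5% and 96.2% after smoke, and the groups overlapped. The acceptor 134 bases downstream took 4.17%, 4% and 0% of junction reads in room air and 5%, 8.33% and 1.47% after smoke. None of the 4 events passed an adjusted p of 0.05 in limma (0% of all events did), none had an unadjusted p under 0.05, and the lowest p-value for them in the authors' deposited table was 0.157. The 2 retained introns of Atf3 in the authors' rMATS comparison, both annotated, differed by 0.3 and -0.7 percentage points between the sample sets in the authors' deposited table, with false discovery rates of 0.927 and 1. Over all retained introns there, 14.5% passed a false discovery rate of 0.05.

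**Figure D4:**
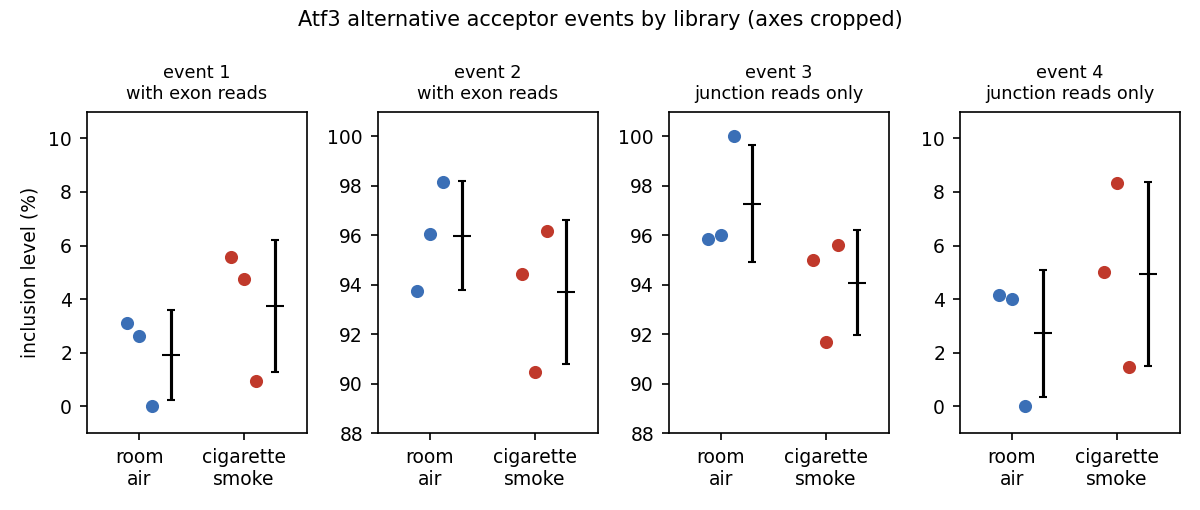
Inclusion level (%) of the 4 Atf3 acceptor events in each room air (blue) and cigarette smoke (red) library, with the mean ± SD of 3 libraries beside them; axes are cropped. Events 2 and 3 describe the annotated acceptor and events 1 and 4 the acceptor 134 bases downstream, and the groups overlap in events 1, 2 and 4. Event 3, where they do not, has an adjusted p of 0.541 in limma, and 23.1% of all events with 6 values are separated likewise.

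Other genes of the pathway were counted in 9 lists. Among 19 other bZIP factors tested, 4 rose and none fell, 21.1% beside the background of 7.69% (median log2 fold change 0.18). Those were Cebpd (log2 fold change 1.00, SE 0.27) and Cebpb (1.21, SE 0.34), C/EBP factors of the inflammatory response, and Atf5 (0.61, SE 0.19) and Atf4 (0.42, SE 0.13), factors of the integrated stress response, all in the authors' deposited table. Cebpd kept an adjusted p under 0.05 (0.0319) with the trend in GC content and length taken out, at a log2 fold change of 0.96. The other 3 did not, at 0.67 for Cebpb, 0.22 for Atf5 and 0.17 for Atf4. The group means of Cebpd were 76.3 and 155.0 normalized counts in the authors' deposited table, and those of Cebpb 50.9 and 115.6.

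Of 27 other immediate early genes tested, 2 rose and none fell, a share of 7.41% beside the background of 7.69%. They were the macrophage regulator Klf4 (log2 fold change 0.91, SE 0.27) and the nuclear protein gene Csrnp1 (0.97, SE 0.29) in the authors' deposited table, and 20 of the 27 had a positive fold change. With the trend in GC content and length taken out both were at 0.76, most of their size, and neither passed the threshold (adjusted p of 0.144 for Klf4 and 0.204 for Csrnp1). Of the EGR corepressor genes, Nab2 had a log2 fold change of 0.63 (SE 0.25, adjusted p 0.0999) and Nab1 one of 0.00 in the authors' deposited table, and neither passed the threshold.

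Upstream of AP-1, 2 of 25 MAP kinase cascade genes rose, the MEK2 gene Map2k2 (0.51, SE 0.13) and the MSK2 gene Rps6ka4 (0.44, SE 0.13), and 1 fell, the TAK1 gene Map3k7 (-0.31, SE 0.10), as log2 fold changes in the authors' deposited table. Together these were 12% of the list. No MAP kinase phosphatase of 9 passed, with Dusp5 at 0.88 (SE 0.49) and Dusp7 at 0.26 (SE 0.15) having the largest Wald statistics in the authors' deposited table. Among 11 SRF, TCF and CREB factors and their coactivators, Srf rose (0.46, SE 0.15), while the acetyltransferase genes Crebbp (-0.55, SE 0.13) and Ep300 (-0.37, SE 0.12) fell, in the authors' deposited table, in all 27.3% of that list. Of 11 factors that bind AU-rich messages 1 fell, Tia1 (-0.75, SE 0.16) in the authors' deposited table, which is 9.09%. The background for all these shares is 7.69%. With the trend in GC content and length taken out none of these calls held, but the sizes moved unequally. Tia1 was then at -0.52 (adjusted p = 0.0678), Crebbp at -0.36 and Ep300 at -0.19, whereas Srf was at 0.08, Map2k2 at 0.19, Rps6ka4 at 0.18 and Map3k7 at -0.10. Elavl1 gained a call there, at 0.43 with an adjusted p of 0.0244.

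The list of 18 genes that textbooks give as AP-1 targets had a median log2 fold change of 0.97, with 15 positive values, 4 genes that rose and none that fell, 22.2% beside the background of 7.69%. The 4 were the urokinase receptor gene Plaur, the cyclooxygenase gene Ptgs2, and the cytokine genes Ccl2 and Il1b. In the authors' deposited table the mean of Plaur went from 75.0 to 272.4 normalized counts (log2 fold change 1.88, SE 0.28, DESeq2 adjusted p = 1.34e-07). Plaur, Ptgs2 and Ccl2 kept an adjusted p under 0.05 with the trend removed, and Il1b had 0.0672. These genes respond to NF-kappaB as well, and the list was drawn up with earlier results of these data known. Of 10 heat shock genes tested, which respond to handling of cells, 1 rose, Hspe1 (0.41, SE 0.14) in the authors' deposited table, a share of 10% beside 7.69% of all genes, and the median was 0.11. With the trend taken out Hspe1 was at 0.28 (adjusted p = 0.411).

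**Figure D5:**
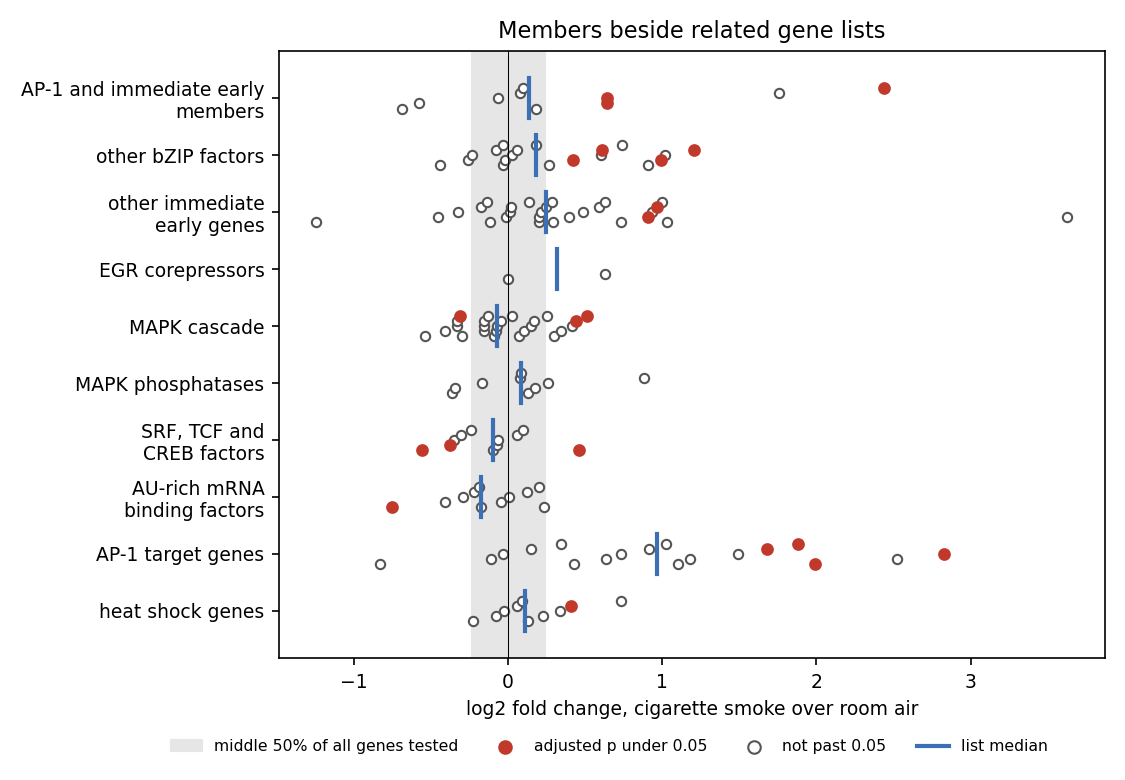
Log2 fold change of cigarette smoke over room air in the authors' deposited table for the genes tested of each list (points; red where the adjusted p is under 0.05) with the list median (blue line); the grey band holds the middle 50% of all genes tested. The band shows the spread of single genes and is no measure for a median. The blue lines stand at 0.97 for the AP-1 targets and at 0.14 for the 10 AP-1 and immediate early genes; with the trend in GC content and length taken out these medians were 0.83 and 0.03.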

How the data were processed

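RNA-seq libraries were made from total RNA with a directional kit, per the labels' protocols. The authors used STAR, DESeq2, SAMtools 1.9, bedtools 2.27.1 and the build mm10, per the submitters' processing notes, which give no roles; the counting program and filters are not given in the sources used here. The deposited gene table holds a signal, the mean of size-factor-normalized counts per group and over 24 libraries, the authors' log2 fold change with its standard error, a Wald score and p-values with adjusted p-values. An adjusted p was missing for 7291 genes with a p-value, all at a 24-library mean of at most 8.52. The fold change column's name holds MAP, a term for shrunken estimates. The slope of its values on the log2 ratio of group means was 0.990 at means of 50 or more, 0.989 from 10 to 50 and 0.901 below 10. The authors deposited JuncBASE levels in percent with p-values, and an rMATS table with p-values and the difference as a fraction, kept here as a score. Its 6 columns of per-sample values were not used, because the table does not say which group each set is. Loci of the merged annotation came from Cufflinks, per the file headers.

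Since only group means were used, the authors' test is described in place of the planned count test, at an adjusted p under 0.05. 95% intervals are 1.96 SE on either side. Inclusion levels p were tested as log2((p + 1)/(100 - p + 1)) with limma 3.58.1 in R 4.3.3 over all events. The trend in GC content and log2 length (GENCODE M21, longest transcript, 99.9% of tested genes) was estimated with natural splines (4 degrees of freedom) in a weighted regression (statsmodels 0.14.6, patsy 1.0.2), and p-values came from the residual over the deposited SE. Both scripts were tested on simulated data. Same-numbered libraries were not treated as pairs: the deviations of their inclusion levels had correlations of 0.02, -0.04 and -0.09. All 10 genes are described; of each list, the genes past the threshold are named, or else the 2 with the largest Wald statistic. The genes and lists were chosen with earlier results of these data known. Alternatives were other adjustments, thresholds, pseudocounts, centring, the trend, a replicate block and leaving out each library.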

Additional observations from a re-analysis of the deposited data

How the results depend on the processing

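The count of 3 genes past the threshold was 3 with adjustment over genes with a 24-library mean of at least 50 and with fold changes centred on the median gene (a shift of -0.01), 2 (Jund and Ier3) with adjustment over all genes with a p-value and at a threshold of 0.01, 4 at a threshold of 0.1, and 0 with the trend in GC content and length removed. The values behind that 0 stand in the report. The log2 ratio of group means with 1 or 10 normalized counts added moved only Fosl1 by more than its SE. No expression result could be recomputed without a library. For the Atf3 events, 0 passed in limma under every alternative run, a pseudocount of 5 percentage points, events with values in all 6 libraries, the replicate block (lowest adjusted p 0.609) and each library left out (0 to 0). Over all events the count was 0 in the main test, 23 among the 5933 events with values in all 6 libraries and 0 with the replicate block, and 0 to 718 with a library left out, 718 without cigarette smoke replicate 3; the cause was not tested. The rMATS count for Atf3 was 0 with and without a minimum difference of 10 percentage points. Fosl1, Fosb and Egr1 had group means under 13 normalized counts, and library depth is unknown.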

Other observations

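Among relatives of the genes described, Egr2, which encodes an EGR factor tied to macrophage activation, was at 29.3 normalized counts in room air and at 82.4 after smoke in the authors' deposited table (log2 fold change 1.52, SE 0.68). It carries no p-value there, as do 13 genes in all, 5 of them with a 24-library mean of at least 10, so no call can be given for Egr2. Group means cannot show whether a single library carries its difference. Egr3 had means of 8.61 and 6.29 in that table. The nuclear receptor gene Nr4a3, an immediate early gene named here after its values were seen, had means of 0.200 and 2.74 normalized counts in the authors' deposited table (log2 fold change 3.63, SE 1.32, adjusted p 0.0642) and a mean of 166.4 in the 18 other libraries. Myc, also named after its values were seen, had means of 38.5 and 80.8 in the authors' deposited table, with an adjusted p of 0.0579. All 4 were outside the genes called.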
